A study of Rattus norvegicus with 6 samples.

Results

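VEGF signaling and the endothelial surface were followed through 7 genes on 6 Affymetrix rat genome arrays: the ligands Vegfa and Vegfb, the VEGF receptors Kdr and Flt1, the angiopoietin receptor Tek, and the endothelial surface genes Pecam1 and Emcn. All 7 were measured, by 11 of the 31042 probe sets, a probe set being a group of short probes for 1 transcript. The set was chosen by the Kdr value, which is higher with Gpc4 than in untreated neurons, and the other genes were added to see whether the endothelial markers share that difference. The arrays carried RNA of retinal ganglion cell neurons (RGCs) purified from Sprague Dawley rat pups of both sexes, labelled postnatal day 6 and kept 12 days in culture with BDNF and CNTF. Of the 6 arrays, 2 were of RGCs with no protein added (labelled untreated, here Alone), 2 of RGCs given glypican 4 (Gpc4) for 12 hr, and 2 of RGCs given thrombospondin 1 (TSP1) for 12 hr. The methods state 2 separate RGC cultures, and each array pooled 2 wells. Replicate 1 of every group was taken as culture 1 and replicate 2 as culture 2, which the labels do not state. Retinal cells were passed over a lectin-coated dish, which binds microglia and fibroblasts, and then over an antibody that binds RGCs, and a growth inhibitor was added against fibroblasts. Gpc4 was secreted by HEK293 cells (a human embryonic kidney line) and purified by its histidine tag, and no group was given a control protein from that preparation.

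In blood vessels, VEGF-A binds the receptor tyrosine kinases VEGFR2 (Kdr) and VEGFR1 (Flt1). VEGFR2 carries most of the growth and migration signal, while VEGFR1 binds the ligand tightly and signals weakly, so that it also acts as a trap. VEGF-B binds VEGFR1 and not VEGFR2. Neurons and glia of the developing retina make VEGF-A as vessels grow in, and VEGFR2 is known in retinal neurons and progenitors as well as in endothelium. Pecam1, Emcn (endomucin) and Tek (Tie2) are surface proteins used as endothelial markers, though other cell types can carry them too.

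The values are log2 RMA expression values, on which a difference of 1 is a doubling of signal. The median of an array lay between 5.96 and 5.99, and no detection calls were at hand. A probe set below this median may therefore read mostly background, and its differences can understate changes in mRNA. Arrays of 1 group differed by a median of 0.1 to 0.11. Binding strength varies from probe set to probe set, so levels are set against the array's median and not ranked between genes. Gpc4 and TSP1 were each compared with the same 2 Alone arrays, by limma on all 6 arrays, two-sided, with the Benjamini-Hochberg adjusted p, computed over the whole array, held to a threshold of 0.05. In bulk RNA, fewer cells of a type and less RNA per cell cannot be told apart.

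In Alone, 1 probe set each of Vegfa, Vegfb and Kdr gave signal above the median of the arrays, and every probe set of Flt1, Tek, Pecam1 and Emcn lay below it. The Alone mean was 9.44 ± 0.11 (SD, n = 2) for Vegfa, 9.36 ± 0.05 (SD, n = 2) for Vegfb and 7.10 ± 0.37 (SD, n = 2) for Kdr. It was 3.98 ± 0.08 (SD, n = 2) for Flt1 (the highest of its 3 probe sets), 3.76 ± 0.13 (SD, n = 2) for Tek, 3.44 ± 0.23 (SD, n = 2) for Pecam1 and 4.38 ± 0.40 (SD, n = 2) for Emcn. Over the 11 probe sets, 8 lay below the median of all probe sets in Alone (5.98), and 6 of these lay in the lowest 25% (below 4.29). Of Flt1, Tek, Pecam1 and Emcn, only Emcn reached past that level.

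**Figure D1:**
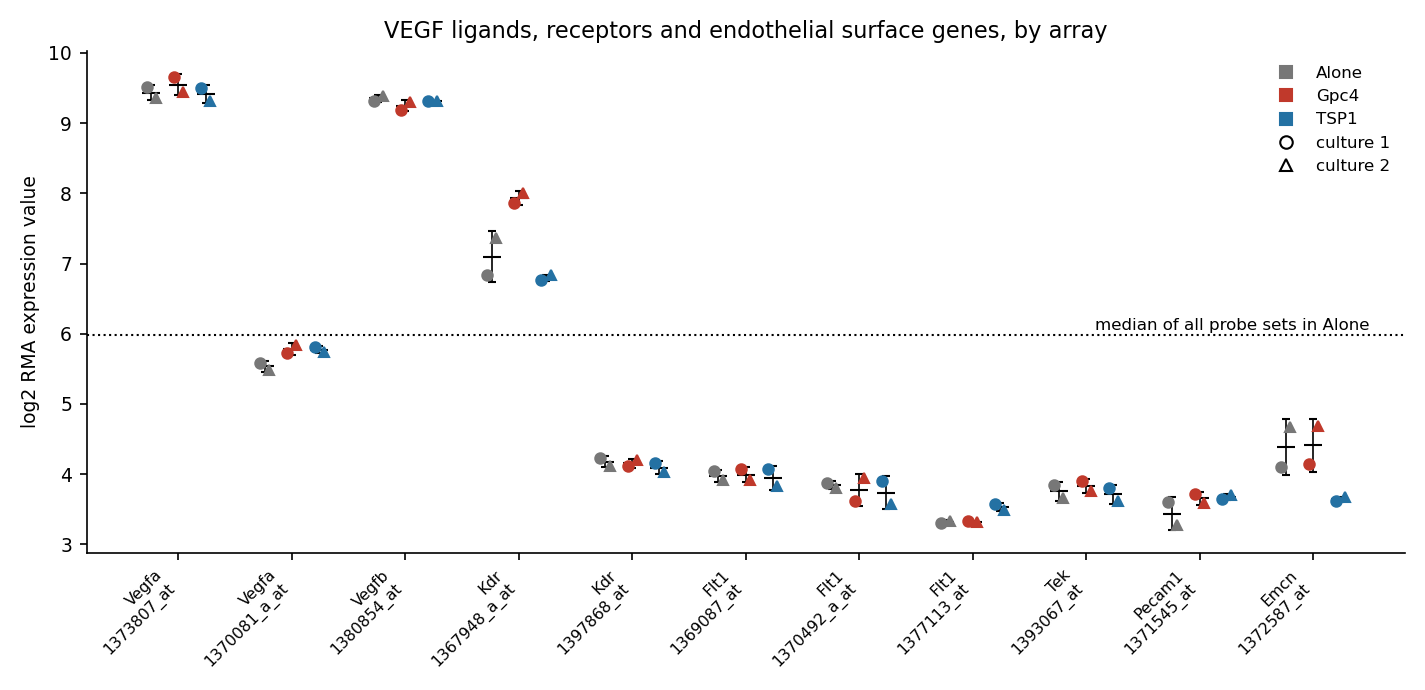
Log2 RMA value (y axis) of each of the 11 probe sets (x axis) on each array, with Alone in grey, Gpc4 in red and TSP1 in blue; circles are culture 1, triangles culture 2, dashes means and bars SDs (n = 2), and the dotted line is the median of all probe sets in Alone, 5.98. The first Kdr probe set stands at 7.86 and 8.0 with Gpc4 and between 6.77 and 7.36 on the other arrays, while all probe sets of Flt1, Tek, Pecam1 and Emcn lie below 5.

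Other endothelial markers were likewise mostly in the low range. Of a list of 25, 22 were measured (Cdh5, Robo4 and Cd34 were not measured by a probe set with a single symbol). Of the 22, 17 lay below the median of all probe sets in Alone, where the list had a median of 4.40. With 1 probe set per gene, as in the list, 4827 of all 14217 genes lay below it, and the median over genes was 7.455. Of the low ones, Vwf, Cldn5 and Tie1 are given here, picked after their values were seen. Vwf, the clotting factor carrier made by endothelium, stood at 4.17 and 4.23 on the Alone arrays. Cldn5, a tight junction protein of brain and retinal endothelium, stood at 4.39 and 4.35, and Tie1, a partner of Tek, at 3.91 and 3.82. The 5 above the median of all probe sets were Ramp2 (9.40), Plvap (8.22), Rasip1 (7.20), Egfl7 (7.01) and Esam (6.08). Ramp2 is an accessory protein of the adrenomedullin receptor, and Plvap a protein of endothelial fenestrae. Rasip1 is a Ras-interacting protein, and Egfl7 a secreted matrix protein of vessels. Rasip1, Egfl7 and Esam, like Kdr, lay below the median over genes. For comparison, all 10 measured RGC markers lay above the median, between 7.91 (Pou4f1) and 14.00 (Sncg), with a median of 12.03. Markers of other cells had medians of 5.93 (11 pericyte and smooth muscle genes), 6.90 (8 fibroblast genes), 5.38 (10 microglia and macrophage genes), 4.72 (9 astrocyte and Müller glia genes) and 5.58 (9 genes of other retinal neurons).

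**Figure D2:**
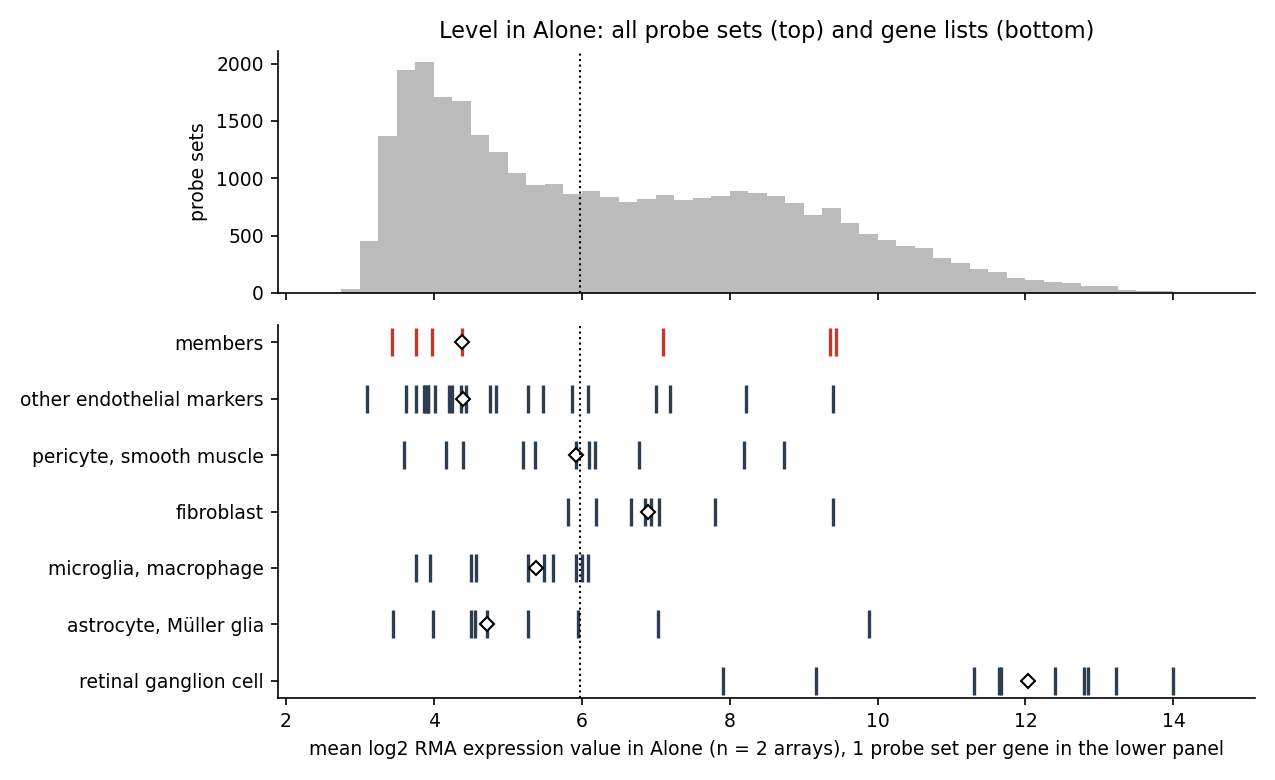
The upper panel counts probe sets (y axis) by their mean log2 value in Alone (x axis, n = 2 arrays), and in the lower panel each tick is 1 gene of the list named on the left, with a diamond at the list's median and the dotted line at 5.98. The members split into 3 above 7 and 4 below 4.4, the other endothelial markers have a median of 4.40, and the RGC markers all lie above 7.9.

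With Gpc4, Kdr, which encodes VEGFR2, had a higher value on both arrays than on either array of Alone. Its probe set 1367948_a_at read 6.84 and 7.36 in Alone, 7.86 and 8.0 with Gpc4, and 6.77 and 6.83 with TSP1 (cultures 1 and 2 in each pair). The 2 Gpc4 values are the highest of the 6, and the gap between the Alone arrays, 0.52, is wider than that within either treated group. The Gpc4 mean exceeded the Alone mean by 0.83 (standard error 0.16), or 1.78-fold, with 1.02 in culture 1 and 0.64 in culture 2. It exceeded the TSP1 mean by 1.13 (standard error 0.16), with 1.09 and 1.17 in the cultures. Because Kdr was chosen for this contrast, these are descriptions with no test. By size of the difference from Alone, Kdr ranked 47th of 31042 probe sets and 35th of 14217 genes. Past the threshold with Gpc4 were 26 of 31042 probe sets (0.0838%), and no member was one of them. With the culture as a block they were 64, or 0.206%, and no member passed either. When probe sets with a mean under 6 were also left out, 0.583% of the 15429 kept passed, 1 of the members' 3 (Kdr) among them. Since the contrast chose Kdr, nothing is read from these counts for the members. Leaving out 1 array at a time gave a Kdr difference of 0.57 to 1.09.

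A further probe set of Kdr, 1397868_at, read 4.23 and 4.12 in Alone, 4.11 and 4.20 with Gpc4, and 4.16 and 4.03 with TSP1, all in the low range, with a Gpc4 difference of -0.02 (standard error 0.10). The Kdr difference thus stands on 1367948_a_at alone. Averaged over both, it was 0.405.

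The start region of Kdr is shown because Kdr is the member with the largest Gpc4 difference. Beside it stand those of Vegfa, its ligand, and Emcn, the member with the largest TSP1 difference. Neither difference passed the threshold in the main fit. The lines give the bases before the annotated gene start, 5′ to 3′ on the plus strand, from RefSeq (build GRCr8), at chr14:32571813-32572030 for Kdr, chr9:22452604-22452853 for Vegfa and chr2:228564289-228564444 for Emcn. Capitals mark matches, on either strand, to 5 motifs: the GC box GGGCGG, the ETS family site CCGGAA, the hypoxia response core ACGTG, the site GGCGCC of BMP-regulated SMAD proteins, and the TATA box TATAAA.
Kdr: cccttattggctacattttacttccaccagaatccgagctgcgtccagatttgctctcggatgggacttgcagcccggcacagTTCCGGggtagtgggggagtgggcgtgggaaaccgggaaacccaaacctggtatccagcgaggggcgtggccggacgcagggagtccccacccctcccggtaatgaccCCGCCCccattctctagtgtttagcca
Vegfa: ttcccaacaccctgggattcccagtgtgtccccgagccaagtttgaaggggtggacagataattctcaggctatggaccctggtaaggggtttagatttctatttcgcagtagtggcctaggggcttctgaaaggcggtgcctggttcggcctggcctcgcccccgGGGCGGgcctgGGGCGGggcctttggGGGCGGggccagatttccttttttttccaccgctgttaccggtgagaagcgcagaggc
Emcn: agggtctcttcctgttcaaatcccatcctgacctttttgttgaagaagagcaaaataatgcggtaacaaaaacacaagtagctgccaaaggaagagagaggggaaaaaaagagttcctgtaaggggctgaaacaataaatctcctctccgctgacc
The printed Kdr stretch holds 1 match to CCGGAA and 1 to GGGCGG, that of Vegfa holds 3 to GGGCGG, and that of Emcn holds none of the 5. Over the full windows of 300 bases, 250 before and 50 after a start, Kdr has 2 matches to CCGGAA, which 15.0% of 33469 rat promoter windows hold at least once, and 1 to GGGCGG, which 33.1% hold. The other motifs, which 19.3% (hypoxia core), 11.0% (SMAD site) and 14.2% (TATA box) of windows hold, have no match in the Kdr window. For the hypoxia core this covers the form ACGTG only. The form GCGTG, which the printed Kdr stretch holds, was not searched or counted over the windows. Windows were at hand for 5 of the 7 genes, and a match is a run of letters, not a shown binding site.

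With Gpc4, Pecam1, Tek, Emcn and Flt1 differed from Alone by at most 0.22, beside 0.83 for Kdr, and these differences were not tested against that of Kdr. Pecam1, an adhesion molecule of endothelial junctions, read 3.60 and 3.27 in Alone, 3.72 and 3.59 with Gpc4, and 3.64 and 3.70 with TSP1. The Gpc4 and Alone values overlap, with a difference of 0.22 (standard error 0.12). Tek read 3.85 and 3.66 in Alone, 3.90 and 3.76 with Gpc4, and 3.81 and 3.62 with TSP1, so that all 3 groups overlap and the Gpc4 difference was 0.08 (standard error 0.11). Emcn, a sialomucin of venous and capillary endothelium, read 4.10 and 4.67 in Alone and 4.14 and 4.68 with Gpc4, a difference of 0.02 (standard error 0.22). For Flt1 the highest probe set, 1369087_at, read 4.04 and 3.92 in Alone, 4.07 and 3.92 with Gpc4, and 4.07 and 3.83 with TSP1. Its Gpc4 difference was 0.02 (standard error 0.11), and the other Flt1 probe sets gave -0.06 and 0.00. All of these genes read near the floor, where a change in mRNA may leave little trace in the signal, so the values do not show that they stayed level.

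Across the 22 other endothelial markers, differences with Gpc4 ran from -0.25 (Abcb1a, an efflux pump of the blood-brain barrier) to 0.20 (Esam, an endothelial adhesion molecule), with a median of -0.04 beside -0.005 over all probe sets. None reached 0.58 in size and none passed the threshold. Esm1, a gene of endothelial tip cells with a difference of 1.15, is in the VEGF signaling list below and not among the 22. Both Gpc4 arrays lay above both Alone arrays for 3 of the 22 (Esam, Tie1 and Egfl7), against 16% of all probe sets, and below for 8, against 18.9%. The 5 markers with a mean of at least 6 had a median of -0.10. Summed over the list on the linear scale, the signal was 1756 and 1665 in Alone, 1632 and 1618 with Gpc4, and 1689 and 1722 with TSP1. Most of that sum, on every array, came from Ramp2, Plvap and Rasip1, so it says little of the markers near the floor. Among the members, 2 probe sets lay above both Alone arrays with Gpc4 (that of Kdr and 1 of Vegfa) and 1 below (Vegfb).

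**Figure D3:**
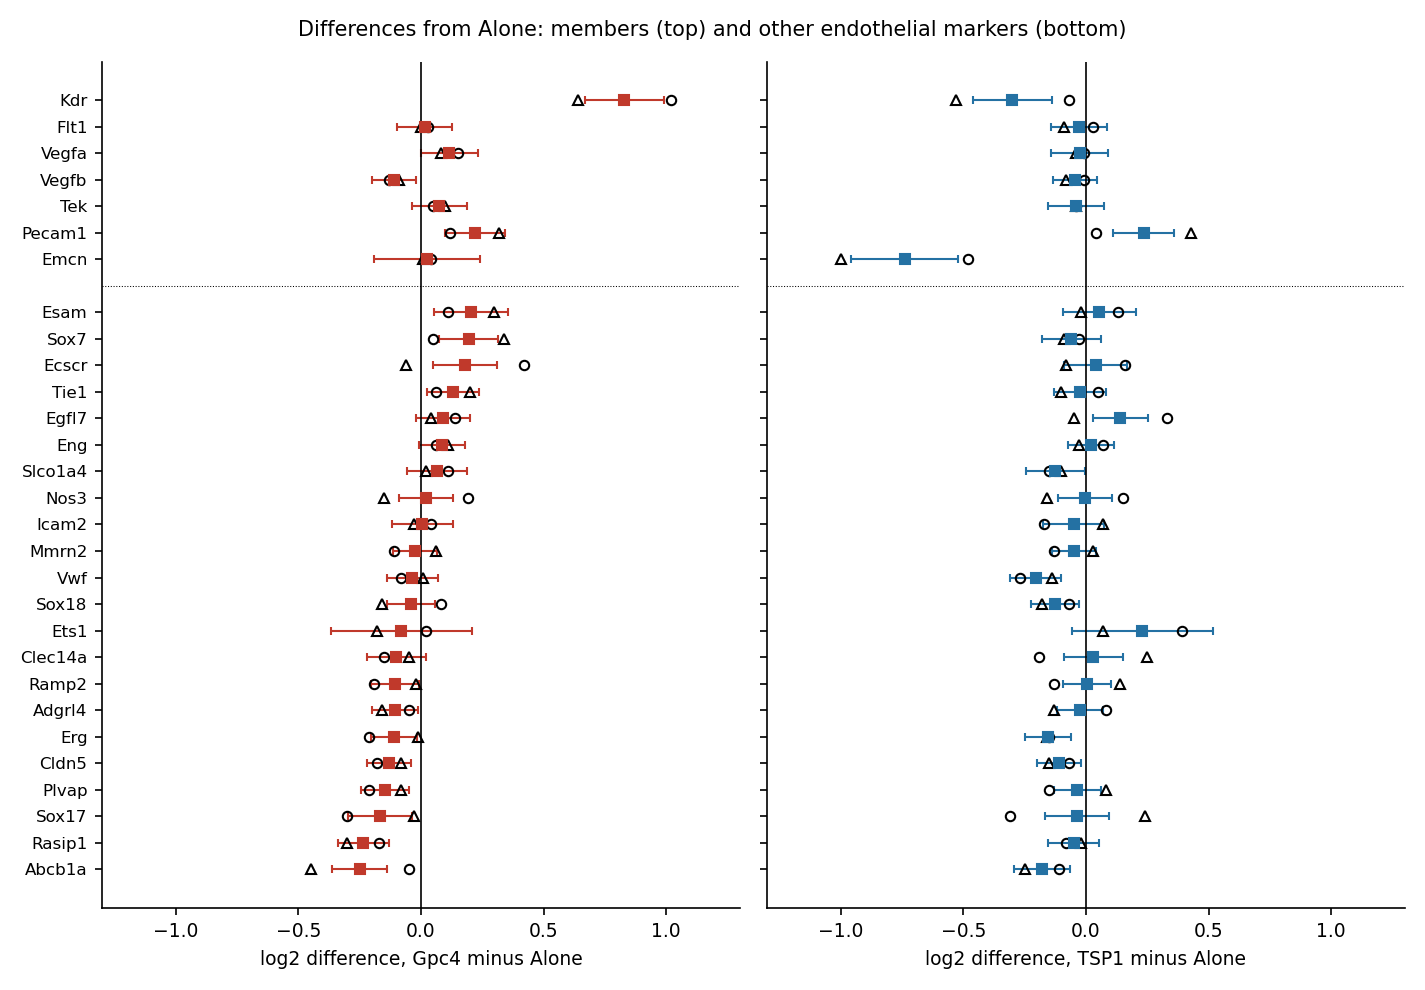
Log2 difference from Alone (x axes) with Gpc4 (left, red) and TSP1 (right, blue) for the 7 members (above the dotted line) and 22 other endothelial markers (below it), 1 probe set per gene; squares are differences of means with standard errors from the fit, open circles culture 1 and open triangles culture 2. With Gpc4, Kdr stands at 0.83 and the other genes shown lie between -0.25 and 0.22; with TSP1, Emcn stands at -0.74.

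Markers of astrocytes and Müller glia had a median difference of 0.135 with Gpc4, and none passed the threshold. In Alone, 7 of 9 lay below the median of all probe sets, against 4827 of all 14217 genes. Both Gpc4 arrays lay above both Alone arrays for 4 of the 9, against 16% of all probe sets. They lay below for 2, against 18.9%: Aqp4 (-0.115) and Gjb6 (-0.135). The summed linear signal was 1209 and 1358 in Alone, 1607 and 1593 with Gpc4, and 1511 and 1435 with TSP1. Most of that sum is Glul, glutamine synthetase, at 9.74 and 10.03 in Alone and 10.29 and 10.27 with Gpc4, with a difference of 0.26 with TSP1. Fgfr3, a growth factor receptor of these glia, had the largest Gpc4 difference of the list, reading 4.54 and 4.47 in Alone, 4.96 and 5.10 with Gpc4, and 4.38 and 4.51 with TSP1. Gfap, their intermediate filament protein, read 5.29 and 5.25, 5.50 and 5.65, and 4.83 and 5.18. Both stood above all other arrays with Gpc4, as Kdr did. The part of such cells in the Kdr difference was not tested.

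The ligand genes differed from Alone by at most 0.245 with either protein. Vegfa, by its stronger probe set 1373807_at, read 9.51 and 9.36 in Alone, 9.66 and 9.44 with Gpc4, and 9.5 and 9.32 with TSP1. The groups overlap, and the difference was 0.12 (standard error 0.12) with Gpc4 and -0.03 (standard error 0.12, adjusted p = 0.99 from limma) with TSP1. Its weaker probe set, 1370081_a_at, read 5.59 and 5.48 in Alone, 5.72 and 5.84 with Gpc4, and 5.81 and 5.74 with TSP1. Here both treated groups lie above Alone without overlap, by 0.245 and 0.24, and the TSP1 difference did not pass (adjusted p = 0.985 from limma, unadjusted p = 0.035). Vegfb read 9.32 and 9.39 in Alone, 9.19 and 9.30 with Gpc4, and 9.31 and 9.31 with TSP1, so that Gpc4 and TSP1 differed from Alone by -0.11 and -0.05. Vegfa is a classic target of the hypoxia response, and 10 genes of that response had a median difference of 0.095 with Gpc4 and -0.05 with TSP1, with none past the threshold. They ranged with Gpc4 from -0.22 (Egln3, an oxygen-sensing hydroxylase) to 0.30 (Ankrd37, at 7.54 and 7.57 in Alone and 7.95 and 7.75 with Gpc4).

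Of 15 other genes of VEGF and angiopoietin signaling, all were measured (Tie1 is also in the endothelial list). In Alone, 10 lay below the median of all probe sets, against 4827 of all 14217 genes. None of the 15 passed the threshold with Gpc4 or TSP1. Their median difference was 0.07 with Gpc4 and -0.025 with TSP1. The co-receptors Nrp1 and Nrp2, which bind VEGF and semaphorins and are known in RGC axons, gave clear signal. Nrp1 read 9.84 and 9.87 in Alone, 9.89 and 9.86 with Gpc4, and 10.04 and 9.99 with TSP1, and Nrp2 read 8.78 and 8.73, 8.84 and 8.62, and 8.99 and 8.80. For both co-receptors the TSP1 arrays stood above the Alone arrays, by 0.16 and 0.14 (adjusted p = 0.985 from limma for each). Plcg1, the phospholipase that VEGFR2 activates, read 9.11 and 9.21 in Alone and 9.10 and 9.18 with Gpc4. Flt4, the receptor of lymphatic vessels, and the angiopoietin genes Angpt1 and Angpt2 lay below 4.6 on every array.

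Esm1 had the largest difference of this list with Gpc4. It encodes endocan, a secreted proteoglycan of endothelial tip cells that VEGF induces. It read 5.27 and 6.18 in Alone, 6.00 and 7.75 with Gpc4, and 4.92 and 6.77 with TSP1. Within each culture the Gpc4 array was the highest, by 0.73 and 1.57 over Alone, but the groups overlap across the cultures. The difference of 1.15 has a standard error of 0.70, or of 0.20 with the culture as a block. Esm1 did not pass the threshold with the block either. The arrays of culture 2 exceeded those of culture 1 in all 3 groups, by 1.5 on average (standard error 0.17, adjusted p = 0.0083 from limma). This test rests on 2 residual degrees of freedom. With 1 array left out fewer remain for every probe set, so that setting cannot judge the Esm1 call.

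With TSP1, no member and no probe set of the array passed the threshold, a share of 0% (1367 probe sets, or 4.4%, had an unadjusted p under 0.05 in limma, 3 of the 11 member probe sets among them). For Kdr the TSP1 difference was -0.30 (standard error 0.16, adjusted p = 0.985 from limma), with -0.07 in culture 1 and -0.53 in culture 2. Without Alone replicate 2, which reads 7.36, it was -0.04. The Alone arrays also entered the choice of Kdr, so its TSP1 p-value is not independent of that choice. The 3 member probe sets at an unadjusted p under 0.05 were those of Emcn, lower, and the weakest ones of Vegfa and Flt1, higher. Both TSP1 arrays lay above both Alone arrays for 3 of the 11 (against 14.3% of all probe sets) and below for 3 (against 15.6%).

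Emcn was the member with the largest TSP1 difference. It read 3.62 and 3.67 with TSP1, against 4.10 and 4.67 in Alone and 4.14 and 4.68 with Gpc4, and the TSP1 arrays lie below all 4 others. The difference from Alone was -0.74 (standard error 0.22, adjusted p = 0.985 from limma, unadjusted p = 0.010), with -0.48 in culture 1 and -1.0 in culture 2. With the culture as a block its adjusted p was 0.41. Pecam1 and Tek differed from Alone by 0.23 and -0.04 with TSP1, and the 22 other endothelial markers had a median of -0.035, with values from -0.20 (Vwf) to 0.23 (Ets1). Some fibroblast genes also had negative TSP1 differences. Pdgfra, a receptor on fibroblasts and glial progenitors, read 6.32 and 7.77 in Alone, 6.35 and 7.75 with Gpc4, and 5.77 and 5.62 with TSP1. Lum and Dcn, proteoglycans of collagen matrix, had TSP1 differences of -1.64 and -1.49. Others of the list went the other way, Postn by 0.99 and Fn1 by 0.44, and none of the 8 passed. With the culture as a block Postn alone passed (adjusted p = 0.04 from limma, with 1.01 and 0.97 in the cultures). The summed linear signal of the list was 1118 and 2100 in Alone, 1188 and 1820 with Gpc4, and 1334 and 2302 with TSP1, and the part of fibroblasts in the Emcn difference was not tested.

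The cultures offer a comparison that the choice of Kdr did not use. Between culture 2 and culture 1, averaged over the 3 groups, 174 probe sets passed (0.561%), and none of the 11 member probe sets did, while 5 of the 11 had an unadjusted p under 0.05 in limma, against 11.3% of all probe sets. Culture 2 stood above culture 1 in all 3 groups for 2 of the 11, those of Emcn and Kdr (against 13.9% of all probe sets). Emcn was higher by 0.39 (standard error 0.11, adjusted p = 0.27 from limma), with 0.57 in Alone, 0.54 with Gpc4 and 0.05 with TSP1. Kdr was higher by 0.24 (standard error 0.10, adjusted p = 0.43 from limma), mostly through Alone, where the gap was 0.52 against 0.14 with Gpc4 and 0.06 with TSP1. Culture 1 stood above culture 2 in all 3 groups for 3 (against 17.5%), the strongest probe sets of Vegfa and Flt1 and that of Tek, each by under 0.2. The other endothelial markers had a median of -0.04, and 1 of the 22 passed, Ets1 (0.61, adjusted p = 0.026 from limma). It encodes a transcription factor active in endothelium and other cells. Fibroblast genes were higher in culture 2, by a median of 0.80 with 3 of 8 past the threshold (Dcn, Lum and Postn). Microglia genes were lower, by a median of -0.41 with 3 of 10 past it (C1qa, C1qb and Tyrobp). Pericyte and smooth muscle genes had a median of -0.01. Of these 11, 2 passed, Tagln (1.36, adjusted p = 0.0037 from limma) and Abcc9 (0.84, adjusted p = 0.0042 from limma). Gad1, of other retinal neurons, also passed (0.61, adjusted p = 0.016 from limma). These calls rest on 2 residual degrees of freedom. With 1 array left out fewer remain for every probe set, so that setting cannot judge these calls.

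The 5 genes most like Kdr over the 6 arrays were taken by Pearson correlation among 1498 named probe sets whose values range over at least 0.58. They were Cachd1 (r = 0.99), which encodes a calcium channel-like surface protein, the T-box factor Tbx3 (r = 0.99), Id3, an inhibitor of basic helix-loop-helix factors and a classic BMP target (r = 0.96), Ngfr, the p75 neurotrophin receptor (r = 0.96), and Loricrin, a protein of the cornified skin envelope (r = 0.96). With n = 6 arrays in 3 groups, 42 of the 1498 reach 0.9, so these values describe a shared shape and no more. Cachd1 read 6.93 and 7.28 in Alone, 7.85 and 7.92 with Gpc4, and 6.92 and 6.79 with TSP1, close to Kdr in size too. Id3 read 7.88 and 8.40 in Alone, 10.16 and 10.52 with Gpc4, and 7.39 and 8.18 with TSP1. Among the members, Emcn had r = 0.73 with Kdr, and the strongest probe sets of the others lay between -0.42 (Vegfb) and 0.34 (Vegfa), with Pecam1 at -0.07, Tek at 0.24 and Flt1 at -0.003.

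**Figure D4:**
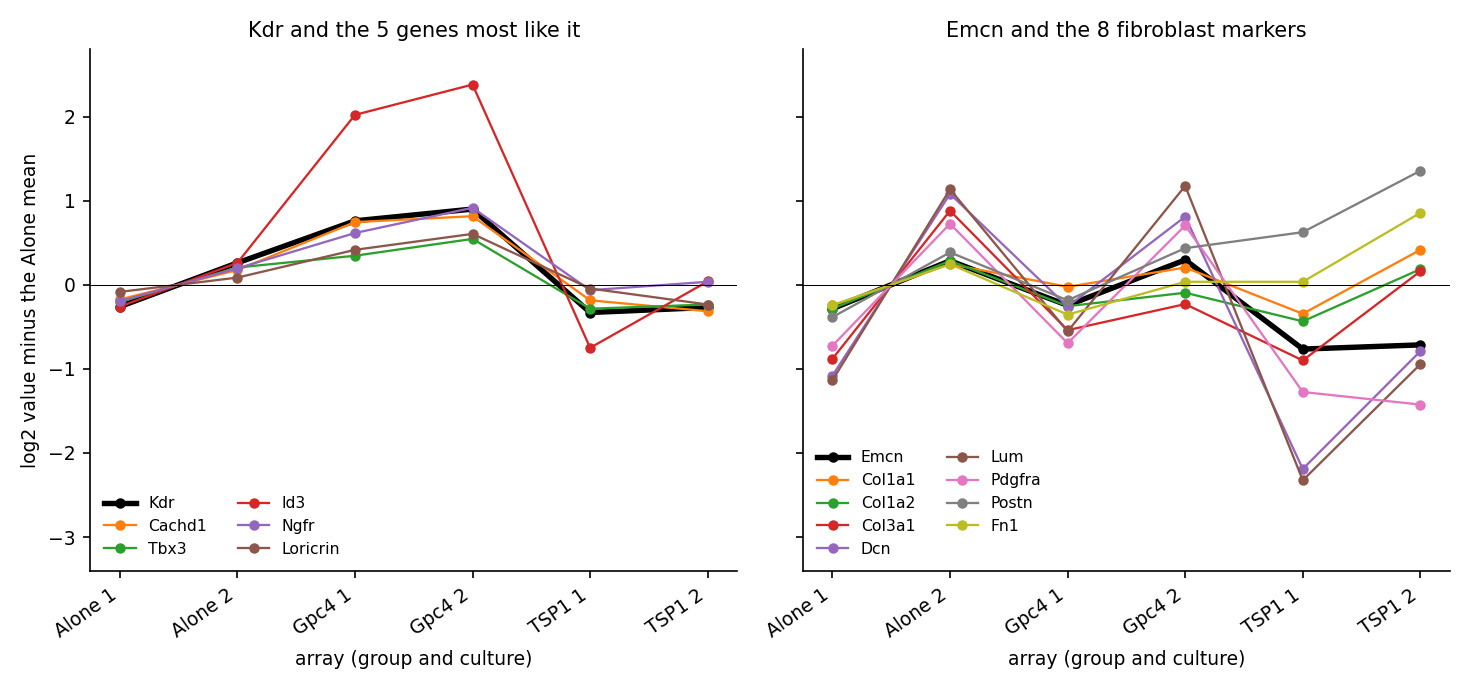
Log2 value minus the Alone mean (y axes) on each of the 6 arrays (x axes, group and culture) for Kdr with the 5 genes most like it (left) and for Emcn with the 8 fibroblast markers (right); heavy black lines are Kdr and Emcn. The Kdr line is highest on the Gpc4 arrays, and the Emcn line is lowest on the TSP1 arrays, where Pdgfra, Lum and Dcn are low and Postn and Fn1 are not.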

How the data were processed

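The authors hybridized 1 Affymetrix Rat Genome 230 2.0 array per sample (6 in all) and ran Expression Console on the scans, in a version that the sources used here do not name. The deposited values are log2 RMA values to 2 decimals: RMA subtracts background, brings the arrays to a shared distribution and combines the probes of a set. No other normalization or filter was applied, and precision is limited by the number of arrays.

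Samples were grouped by their labels into Alone, Gpc4 and TSP1 (2 arrays each). Symbols came from the platform annotation: 20826 of 31042 probe sets have 1 symbol, updated through the gene identifier to RefSeq (assembly GRCr8), 436 carry more than 1 and stayed unnamed, and 9780 carry none. Differences were tested in R 4.3.3 by limma 3.58.1 (a mean for each group fitted by lmFit to the 6 arrays, 3 residual degrees of freedom, moderated by eBayes), two-sided, with Benjamini-Hochberg adjustment over all probe sets; the script was tested on simulated data. Cultures were compared in a fit with group and replicate number. The replicate numbers were taken to pair the arrays, which the labels do not state. The methods state 2 cultures, and the replicate 2 minus replicate 1 differences of the groups correlated at 0.29, 0.35 and 0.37 across probe sets. P-values of the group fit measure the spread between these 2 cultures only. In the culture fit and with the culture as a block, the mean culture shift is taken out. Those p-values rest on the scatter left between the arrays, with 2 residual degrees of freedom. With no replicate of a culture, p-values between the cultures do not measure how cultures vary.

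The members and gene lists were chosen with earlier results of these data known. All probe sets of the members were named. For other genes the probe set with the highest mean stood for the gene. Named were those highest in Alone, those with the largest differences, those past the threshold and the 5 most like Kdr. Some low endothelial markers were also named, chosen after their values were seen. Lists got no test. Figures were drawn with matplotlib 3.10.9. Tek and Pecam1 promoter windows were not used here.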

Additional observations from a re-analysis of the deposited data

How the results depend on the processing

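The causes of the shifts below were not tested. The methods name a t-test for pairwise comparisons in general and, for the arrays, only the Expression Console software. The 26 probe sets called with Gpc4 became 64 with the replicate block and 90 when a mean of 6 was required besides. They became 49 with a trended variance and 13 from the Gpc4 and Alone arrays by themselves. By a t-test they were 1704 unadjusted and 0 after Benjamini-Hochberg (29 probe sets with no spread left out). They were 2 to 13 with 1 array left out. The 0 called with TSP1 became 4 with the block, 8 with the block and that filter, 1280 with the unadjusted t-test, and 0 to 1 with 1 array left out. The 174 called between the cultures became 264 with a trended variance, 69 without the group term and 0 with any array left out. The Kdr difference was 0.405 (Gpc4) and -0.19 (TSP1) as a mean over its probe sets, and otherwise lay between 0.57 and 1.09 and between -0.56 and -0.04. The endothelial list's median with Gpc4 was -0.105 at a mean of at least 6 (5 genes), with or without the block, and -0.0675 to -0.0325 with 1 array left out. With TSP1 it was 0.005 with that filter, -0.025 after median centring or as a mean over probe sets, and -0.0725 to -0.0325 with 1 array left out. Between the cultures it was -0.06 with that filter and -0.0275 to -0.0125 with 1 array left out. By limma, no member passed with TSP1 or between the cultures under any of these. The number of arrays and signal near background limit Flt1, Tek, Pecam1 and Emcn.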
